A study of Mus musculus with 2 samples.

Results

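The genes followed here belong to type 2 immunity and were measured in every cell class of large skin wounds: the cytokines Il4, Il5 and Il13, the receptor chains Il4ra and Il13ra1, and the alternative macrophage genes Arg1, Retnla, Chil3 and Mrc1. They were chosen by symbol, and 9 of the 27998 genes of each single-cell count matrix carry these symbols. The study asked how activation of the DNA sensor TLR9 alters the immune response in a wound large enough to regenerate hair follicles. Both groups were wild-type C57BL/6J male mice aged 6 to 8 weeks with an unsplinted circular dorsal wound 1.8 cm across. The group WT_LW received, by its labels, PBS on days 0, 3 and 6 after wounding, and the group TLR9agonist_LW received the TLR9 agonist ODN2395, a CpG oligonucleotide, on the same days. The study's own text gives the control of WT_LW as PBS in one place and as a control oligonucleotide in another, and which was used was not resolved here. The centre of the healed wound was taken 2 days after the scab had detached, and cells of epidermis and dermis were profiled together by 10x Genomics 3′ single-cell RNA sequencing. Each group is 1 library of cells pooled from several mice, so there were no replicates, no difference between the groups could be tested, and the treatment, the library and the animals cannot be told apart.

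Type 2 immunity is the arm of the immune response directed against worms and allergens, and it also takes part in tissue repair. IL-4 and IL-13 come from T helper type 2 cells, group 2 innate lymphoid cells, mast cells and basophils, and both act through a receptor containing the IL-4 receptor alpha chain, which signals through the transcription factor STAT6. In macrophages this signal turns on a set of genes, among them arginase 1, the secreted proteins RELM alpha (Retnla) and Ym1 (Chil3), and the mannose receptor CD206 (Mrc1), that are used as markers of the alternative state. IL-5, encoded beside IL-4 and IL-13, acts mainly on eosinophils.

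After filtering, 10395 cells of WT_LW and 11811 cells of TLR9agonist_LW entered the analysis, with 85681280 and 111120573 unique molecular identifiers (UMIs, counted RNA molecules) and medians of 5519 and 6080 UMIs per cell. The libraries shared 47 cell barcodes. Each cell was placed in a class by marker genes that included none of the 9 members, and 96.2% of 19528 cells in a class fell in a cluster of the same class. Clusters were named by the same marker scores, so this agreement is in part built in. The NK-like, B and plasma, ILC2-like cells and basophils were left out of this check. Every class used below showed most or all of its own markers, but the gate itself asks for them, so this is no separate check. Chymase (Cma1) was the leading marker of the mast cells, found in 96.2% of them, and Cd3g was found in 93.0% of the T cells, whereas the median Cd3e and Cma1 level was 0 in the macrophages and dendritic cells. Between 23 and 51 macrophages and dendritic cells per library, and between 60 and 166 T cells, lay close to the limit of their gate. A further 681 and 641 cells had the markers of more than one class and were set aside as mixed, and 514 and 673 cells had no class. No cell passed the gate for eosinophils. Free RNA differed between the libraries: the keratin Krt10 was found in 35.8% of T cells in WT_LW and 88.1% in TLR9agonist_LW, and the macrophage lysozyme Lyz2 in 58.2% and 31.0% of T cells.

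Levels are counts-per-million (CPM), the UMIs of a gene scaled to all UMIs of its class, with exact Poisson 95% intervals. Ratios are log2 of the TLR9agonist_LW level over the WT_LW level, with exact conditional 95% intervals, and the interval of a share of cells is the exact Clopper-Pearson one. For a share of 0, the limit given is instead 3 cells of the total. All of these cover counting error only. The median gene of a class was itself shifted, by −0.39 over all cells, −0.28 in T cells, −0.27 in macrophages and dendritic cells and −0.04 in mast cells, so ratios relative to the median gene are given where they alter a direction. Levels of different genes are not compared.

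Because STAT6 and the factors of type 2 lymphocytes act on the promoters of several members, these were read from RefSeq (build GRCm38.p6) for the 8 members with an entry, as 250 bases before and 50 bases after the start of transcription. The letters TTCNNNNGAA, the spacing favoured by STAT6, occur on either strand in 6.95% of 32851 promoters of this length, and TTCNNNGAA, with the shorter spacer used by other STAT factors, in 8.30%. Among the members' promoters the longer form was found once in that of Il4 and once in that of Retnla, and the shorter form once in that of Chil3 (and once in a second Il4 entry that starts inside the gene). The 3 promoters are shown because they hold these letters, which are in capitals.

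Il4, chr11:53618616-53618915, minus strand: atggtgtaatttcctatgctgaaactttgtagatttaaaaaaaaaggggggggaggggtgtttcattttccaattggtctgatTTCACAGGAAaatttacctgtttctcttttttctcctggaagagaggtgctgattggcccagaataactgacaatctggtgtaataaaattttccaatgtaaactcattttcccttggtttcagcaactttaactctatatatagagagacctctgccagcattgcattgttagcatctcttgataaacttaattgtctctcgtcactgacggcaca
Retnla, chr16:48842359-48842658, plus strand: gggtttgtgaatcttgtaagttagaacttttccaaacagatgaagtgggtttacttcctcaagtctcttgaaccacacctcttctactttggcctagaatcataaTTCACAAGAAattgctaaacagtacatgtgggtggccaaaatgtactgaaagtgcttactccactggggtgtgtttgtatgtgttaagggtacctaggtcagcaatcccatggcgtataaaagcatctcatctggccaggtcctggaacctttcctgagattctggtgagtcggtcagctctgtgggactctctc
Chil3, chr3:106167515-106167814, minus strand: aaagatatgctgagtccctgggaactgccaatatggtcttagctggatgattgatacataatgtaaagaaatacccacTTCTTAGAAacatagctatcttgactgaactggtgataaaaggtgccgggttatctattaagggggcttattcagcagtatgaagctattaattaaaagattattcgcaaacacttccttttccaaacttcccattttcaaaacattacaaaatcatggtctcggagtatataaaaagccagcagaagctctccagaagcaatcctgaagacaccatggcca

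In the Il4 promoter the run TTCACAGGAA began 167 bases before the start and overlapped 1 of 4 copies of GGAAAA, the core letters of NFAT sites, which 23.4% of all promoters hold on either strand. The Retnla run TTCACAAGAA began 145 bases before its start and the Chil3 run TTCTTAGAA 172 bases before. The promoters of Il13, Retnla, Chil3 and Mrc1 held 1 GGAAAA each. The Chil3 and Il13 promoters each held 1 AGATAA, the letters of GATA sites, found in 11.2% of all promoters. The promoters of Il5, Il4ra and Il13ra1 held none of the 4 motifs in this window. A match of letters is a description of the sequence and no evidence of binding.

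Il4 (chromosome 11, 53602982 to 53618669, minus strand, GRCm38 as in the GENCODE annotation, joined by gene ID) was mainly a mast cell and basophil transcript in both libraries. Its level in mast cells was 215 CPM in WT_LW (interval 183 to 250; 161 UMIs in 73 of 215 cells) and 363 CPM in TLR9agonist_LW (326 to 403; 349 UMIs in 129 of 437 cells). Mast cells held 66.8% of all Il4 UMIs in the first library and 83.3% in the second. The mast cell level was thus higher with the agonist, with a log2 ratio of 0.76 (0.48 to 1.04), and it was 0.72 without the cell with the most Il4 in each library.

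The number of mast cells was also larger in TLR9agonist_LW, 3.70% of cells against 2.07%, while their median depth was lower, 1754 UMIs against 2246. After each cell had been thinned to 1500 UMIs, which left out 67 and 178 shallower mast cells, Il4 was found in 20.3% of mast cells of WT_LW (14.1 to 27.7; 30 of 148) and 26.3% of TLR9agonist_LW (21.0 to 32.1; 68 of 259), so the shares overlapped within counting error. The unthinned shares were 34.0% and 29.5%. No thinned Schwann cell held an Il4 UMI, 0 of 767 and 0 of 464 cells, which allows shares of up to 0.391% and 0.647%; the Schwann cells serve as a class that should lack these genes, with median depths of 6875 and 6310 UMIs.

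Basophils were few, 11 cells in WT_LW and 4 in TLR9agonist_LW, but 8 and 2 of them held Il4, at 999 CPM (717 to 1356) and 587 CPM (380 to 866). In TLR9agonist_LW 24 of the 25 basophil UMIs came from 1 cell, so no direction was read from these values. The 6 ILC2-like cells of WT_LW held 5 Il4 UMIs, or 134 CPM, and the 8 of TLR9agonist_LW held 0. T cells, often thought of as the main source, held 12 Il4 UMIs among 3075 cells and 6 among 3012 cells, or 0.761 and 0.389 CPM, against 0.192 and 0.248 CPM in fibroblasts. Over all cells the Il4 level was 2.81 CPM in WT_LW and 3.77 CPM in TLR9agonist_LW, a log2 ratio of 0.42 (0.19 to 0.66).

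**Figure D1:**
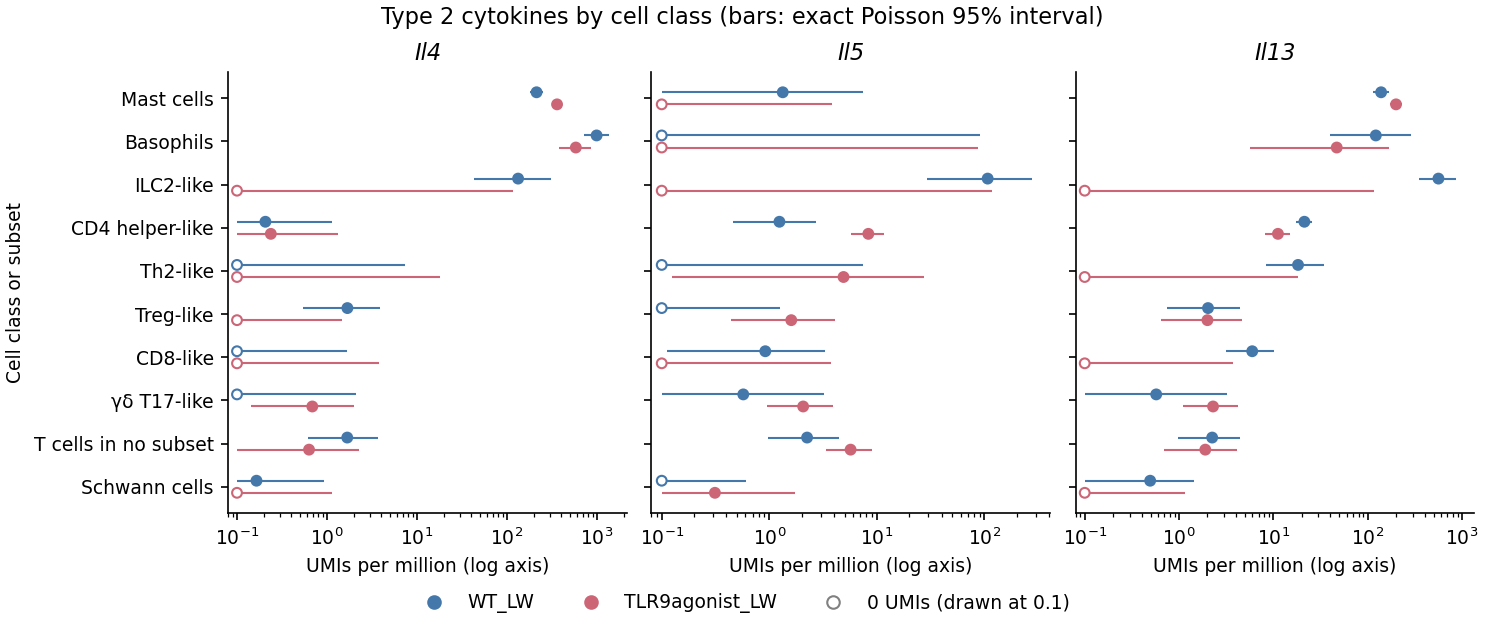
Level of Il4, Il5 and Il13 (horizontal log axis, CPM) in cell classes and T cell subsets of WT_LW and TLR9agonist_LW, with exact Poisson 95% intervals as bars and open points, drawn at 0.1, for 0 UMIs. Il4 stands highest in mast cells and basophils, Il13 in mast cells and the 6 ILC2-like cells of WT_LW, and Il5 reaches 8.32 CPM in CD4 helper-like cells of TLR9agonist_LW, where 1 cell holds 28 of the 35 UMIs, and 107 CPM, from 4 UMIs, in the ILC2-like cells of WT_LW.

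Il13 (chromosome 11, 53631324 to 53634702, minus strand), which shares the IL-4 receptor alpha chain and drives mucus and matrix responses, had several sources. In mast cells its level was 139 CPM (113 to 168; 104 UMIs, 44 cells) in WT_LW and 200 CPM (172 to 230; 192 UMIs, 96 cells) in TLR9agonist_LW, a log2 ratio of 0.53 (0.17 to 0.88). In T cells it was 8.87 CPM (140 UMIs, 47 cells) in WT_LW and 4.41 CPM (68 UMIs, 25 cells) in TLR9agonist_LW, a log2 ratio of −1.01 (−1.45 to −0.58). The mast cell ratio had an interval that included 0 under 3 alternatives, the stricter cell filter (0.31, −0.06 to 0.69), doublets kept (0.25, −0.08 to 0.58) and mixed-marker cells kept (0.29, −0.06 to 0.64). The T cell ratio turned to 0.14 when each cell had equal weight in place of each UMI.

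CD4 helper-like T cells held most of the T cell Il13. They had 103 UMIs in 30 of 745 cells of WT_LW, or 21.3 CPM (17.4 to 25.8), and 47 UMIs in 13 of 681 cells of TLR9agonist_LW, or 11.2 CPM (8.21 to 14.9). A single cell of TLR9agonist_LW held 18 of those 47 UMIs, and without the top cell of each library the log2 ratio was −1.46 in place of −0.93, while with equal weight per cell it was 0.01. After thinning, 1.62% of CD4 helper-like cells in WT_LW (12 of 739) and 0.589% in TLR9agonist_LW (4 of 679) held Il13, against 0.130% and 0 of Schwann cells.

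Cells gated as Th2-like from Gata3 and related markers, without the cytokines, were scarce at 74 and 38 cells, and held 9 Il13 UMIs in 2 cells of WT_LW and none in TLR9agonist_LW. The ILC2-like cells, innate lymphocytes with Gata3 but no Cd3 genes, were scarcer still. They held 21 Il13 UMIs in 3 of 6 cells of WT_LW, 16 of them in 1 cell, and 0 UMIs in 8 cells of TLR9agonist_LW. Without that cell 5 UMIs remained in WT_LW, so no fold is given.

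Over all cells, Il13 was at 4.03 CPM (345 UMIs) in WT_LW and 2.92 CPM (324 UMIs) in TLR9agonist_LW, a log2 ratio of −0.47 (−0.69 to −0.24). This direction depended on the weighting: relative to the median gene the ratio was −0.08, and with equal weight per cell it was 0.53. Basophils held 5 and 2 Il13 UMIs, and cells without a class 27 and 34, with 24 of the 34 in 1 cell that also held 16 Il5, 15 Gata3 and 10 Il1rl1 UMIs and none of Cd3d or Cd3e. The macrophages and dendritic cells listed 24 and 3 Il13 UMIs, 14 of the 24 in 1 cell that also held 1015 Lyz2 and 17 Gata3 UMIs.

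Whether the same mast cells held both cytokines was read after thinning. In mast cells of TLR9agonist_LW, 20 of 68 Il4-positive cells (29.4%, 19.0 to 41.7) also held Il13, against 15.2% (10.4 to 21.1) of those without Il4. In WT_LW the shares were 2 of 30 (6.67%, 0.818 to 22.1) and 15.3% (9.30 to 23.0). The 2 intervals overlapped within each library, and the difference between the libraries was not tested.

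Il5 (chromosome 11, 53720794 to 53725106, plus strand), the growth and survival factor of eosinophils, was found in the fewest cells of the 3 cytokines. It was found in 20 cells of WT_LW (30 UMIs, 0.350 CPM) and 32 cells of TLR9agonist_LW (185 UMIs, 1.66 CPM). The log2 ratio over all cells was 2.25 (1.69 to 2.86), and 1.99 without the top cell of each library. The libraries thus differed less in positive cells than in UMIs, and a few cells of TLR9agonist_LW held many.

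A set of 3 cells held 62.2% of the Il5 UMIs of TLR9agonist_LW. One cell with 51 Il5 UMIs had no class but held 8 Gata3 and 5 Il1rl1 UMIs, genes of type 2 lymphocytes. Another, with 36 Il5 UMIs among its 25210, was gated as an Mmp12 macrophage-like cell and held 48 Lyz2 but also 21 Gata3 UMIs, and it was the single Il5-positive cell of the macrophages and dendritic cells in that library. The remaining cell was CD4 helper-like, with 28 Il5 and 18 Il13 UMIs.

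Within T cells Il5 was at 1.08 CPM (0.628 to 1.73; 17 UMIs, 10 cells) in WT_LW and 4.35 CPM (3.37 to 5.52; 67 UMIs, 15 cells) in TLR9agonist_LW, a log2 ratio of 2.01 (1.23 to 2.87). Without the top cells the T cell ratio was 1.62 (0.68 to 2.65). After thinning, 3 of 2986 and 6 of 2982 T cells held Il5, shares that do not differ beyond counting error. Mast cells, rich in the other 2 cytokines, held 1 Il5 UMI in WT_LW and none in TLR9agonist_LW, and the ILC2-like cells held 4 in WT_LW and none in TLR9agonist_LW.

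**Figure D2:**
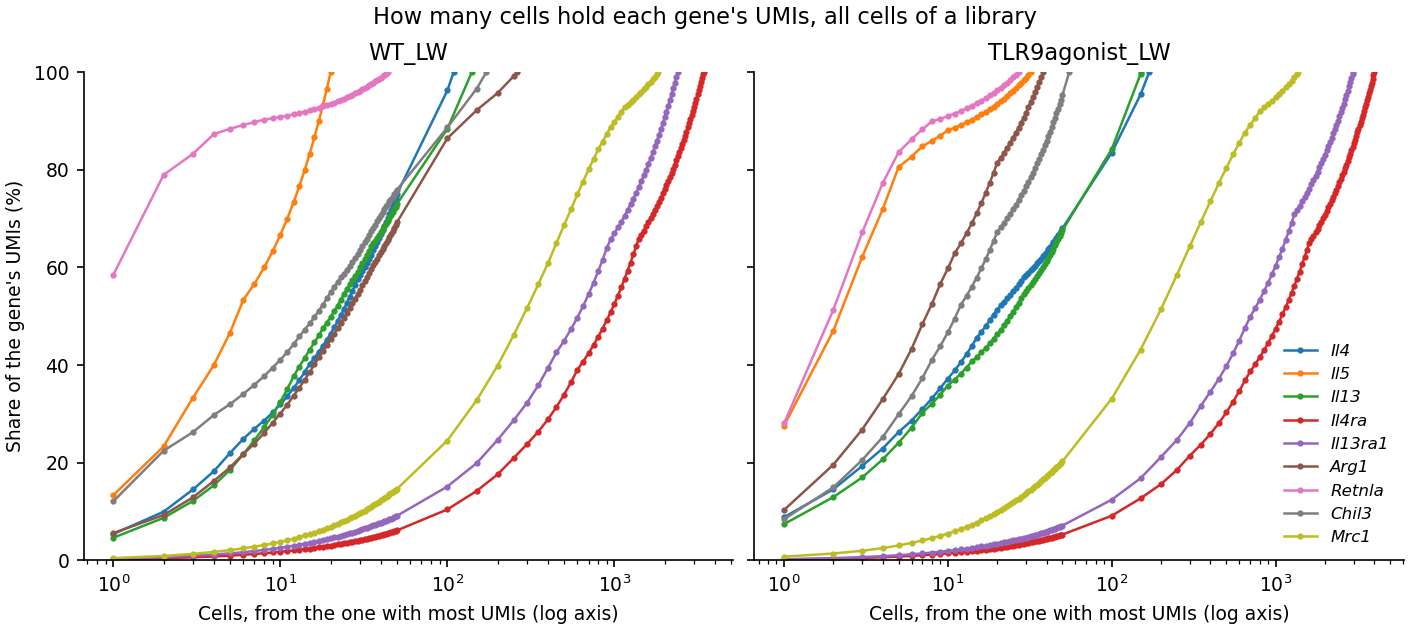
Cumulative percentage of each gene's UMIs (vertical axis) held by the cells richest in it (horizontal log axis, number of cells), in WT_LW and TLR9agonist_LW. The lines of Retnla and Il5 start high, with 58.5% of Retnla in 1 cell of WT_LW and 62.2% of Il5 in 3 cells of TLR9agonist_LW, whereas 10 cells hold 3.82% and 5.49% of Mrc1.

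Among the T cell members, those with at least 50 UMIs in both libraries together were Il5, Il13, Il4ra, Il13ra1 and Mrc1. Taken as a call of 2-fold relative to the median gene, 1 of these 5, Il5, was higher and 0 were lower, where 6.44% of the 11383 T cell genes tested were called higher and 4.27% lower. In mast cells 3 members had at least 50 UMIs, Il4, Il13 and Il4ra, and 0 were called in either direction, where 11.4% of 3975 genes were called higher and 6.19% lower. Csf2, another cytokine of the type 2 list, was called higher in both classes, at 38.2 and 126 CPM in T cells and 16.0 and 39.5 CPM in mast cells.

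Il4ra (chromosome 7, 125552120 to 125579474, plus strand), the signalling chain common to the IL-4 and IL-13 receptors, was widespread among immune and endothelial cells. Its order in WT_LW was T cells at 115 CPM (110 to 120), macrophages and dendritic cells at 111 (106 to 116), blood endothelial cells at 67.1 (60.1 to 74.7), mast cells at 64.0 (47.2 to 84.8), keratinocytes at 29.7, fibroblasts at 26.3, pericytes at 20.2 and Schwann cells at 17.8. T cells did not differ beyond their intervals from macrophages and dendritic cells, nor endothelial from mast cells. In TLR9agonist_LW the order was T cells at 144 (138 to 150), blood endothelial cells at 121 (111 to 133), mast cells at 101 (81.8 to 123), macrophages and dendritic cells at 93.1 (88.0 to 98.4), keratinocytes at 33.4, pericytes at 26.7, fibroblasts at 24.1 and Schwann cells at 17.2. Smaller classes were NK-like cells at 126 and 144 CPM, neutrophils at 45.9 and 88.5 CPM and lymphatic endothelium at 38.2 and 34.4 CPM. Blood endothelium had moved up in this order, with a log2 ratio of 0.85 (0.65 to 1.06), or 1.31 relative to the median gene of that class.

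T cells had a smaller difference in Il4ra, with a log2 ratio of 0.33 (0.24 to 0.42). Among the T cell subsets the level was highest in γδT17-like cells, marked by Cd163l1, at 174 CPM (155 to 195) in WT_LW and 237 CPM (223 to 252) in TLR9agonist_LW, a log2 ratio of 0.45 (0.26 to 0.64). These cells numbered 388 and 937. The intervals of the ratio included 0 in Treg-like cells (126 and 134 CPM), CD8-like cells (112 and 98.1 CPM) and CD4 helper-like cells (88.8 and 89.7 CPM).

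In macrophages and dendritic cells Il4ra had a log2 ratio of −0.25 (−0.36 to −0.15), but 0.02 relative to the median gene, so its direction depended on the scaling. By subset, the C1q macrophage-like cells had 130 and 102 CPM and the Mmp12 macrophage-like cells 87.3 and 60.5 CPM, whereas the monocyte-like cells had 117 and 113 CPM. After thinning, Il4ra was found in 15.6% and 13.1% of the class, against 3.26% and 2.16% of Schwann cells.

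Il13ra1 (chromosome X, 36112110 to 36171259, plus strand) forms the IL-13 receptor together with Il4ra and was found in stromal, epithelial and myeloid classes. Macrophages and dendritic cells held the most UMIs in WT_LW (1160 of 4213), and keratinocytes in TLR9agonist_LW (2823 of 5729). By level pericytes led, at 141 CPM (131 to 151) in WT_LW and 123 CPM (112 to 134) in TLR9agonist_LW. Keratinocytes followed at 90.7 and 94.9 CPM, then blood endothelial cells at 65.3 and 83.3, macrophages and dendritic cells at 57.9 and 40.3, and fibroblasts at 41.6 and 34.4. The 35 and 190 neutrophils, left out of this order for their wide intervals, had 126 CPM (63.0 to 226) and 86.4 CPM (62.3 to 117). T cells, at 5.01 and 6.16 CPM, and Schwann cells, at 9.88 and 9.99 CPM, stood low, and mast cells held 6 and 18 UMIs. The part of free RNA in these low values was not tested.

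The macrophages and dendritic cells had less Il13ra1 in TLR9agonist_LW, with a log2 ratio of −0.52 (−0.67 to −0.38), or −0.25 relative to the median gene. Langerhans-like cells, the dendritic cells of the epidermis, differed most, with 92.3 CPM (80.1 to 106; 206 UMIs) against 36.4 CPM (26.8 to 48.4; 47 UMIs), a log2 ratio of −1.34 (−1.83 to −0.88). C1q macrophage-like cells had nearly equal levels, 45.4 and 46.2 CPM, with a log2 ratio of 0.03 (−0.24 to 0.29). In keratinocytes the ratio was 0.07 (−0.04 to 0.17).

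**Figure D3:**
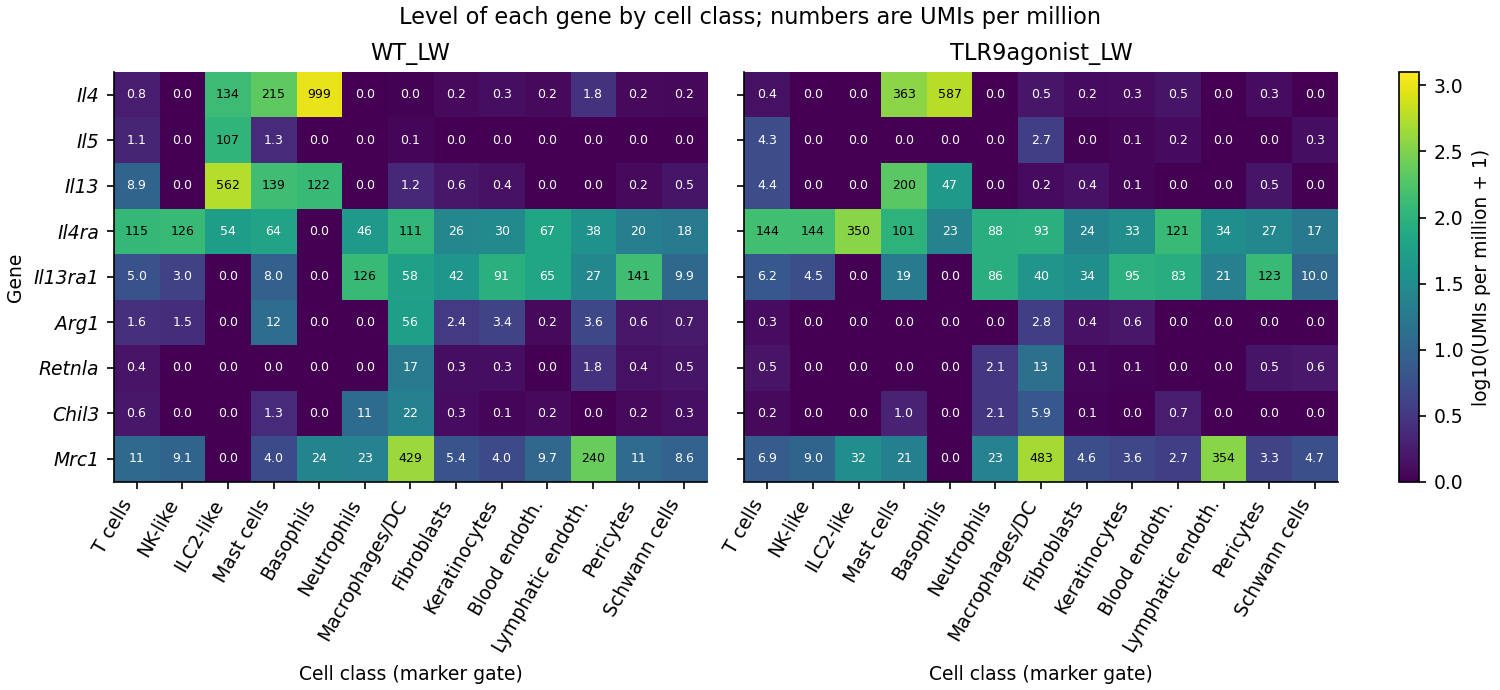
Level of each of the 9 genes (rows) in each cell class (columns) of WT_LW and TLR9agonist_LW, with colour giving log10 of CPM + 1 and the printed number the CPM. The cytokines stand high in few columns, Il4ra and Il13ra1 in many, and Arg1, Retnla, Chil3 and Mrc1 are highest in macrophages and dendritic cells.

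Arg1 (chromosome 10, 24915221 to 24927484, minus strand), which breaks arginine down to ornithine, had the largest difference in macrophages and dendritic cells among the members with at least 50 UMIs there. Those of WT_LW held 1121 Arg1 UMIs in 157 of 2037 cells, or 56.0 CPM (52.7 to 59.3), and those of TLR9agonist_LW held 37 UMIs in 12 of 1449 cells, or 2.78 CPM (1.96 to 3.84). This is a log2 ratio of −4.33 (−4.84 to −3.86), a 20.1-fold lower level. Without the top cell of each library it was −4.68.

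Mmp12 macrophage-like cells, which express the elastase Mmp12, held 621 Arg1 UMIs in 54 of 175 cells of WT_LW (266 CPM, 245 to 288) and 7 UMIs in 3 of 160 cells of TLR9agonist_LW (3.16 CPM, 1.27 to 6.51). The level was 84.2-fold lower, at a log2 ratio of −6.40 (−7.72 to −5.34), and −7.42 without the top cells. Numbers and depth of these cells were similar in the libraries, with medians of 11893 and 12621 UMIs per cell. C1q macrophage-like cells held 274 UMIs in 49 of 705 cells (42.2 CPM) and 0 UMIs in 584 cells, at least 59.3-fold lower against a floor of 3 UMIs. Monocyte-like cells kept the most Arg1 under the agonist, with 53.9 CPM (161 UMIs, 38 cells) against 16.1 CPM (28 UMIs, 8 cells), a log2 ratio of −1.74 (−2.38 to −1.16).

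The shares of cells were lower too. After thinning, Arg1 was found in 4.12% (3.27 to 5.13; 77 of 1868) of macrophages and dendritic cells in WT_LW and in 0.295% (0.0803 to 0.752; 4 of 1358) in TLR9agonist_LW. In Mmp12 macrophage-like cells the shares were 18.1% (12.7 to 24.7; 31 of 171) and 0 of 157, which allows up to 1.91%. T cells held Arg1 in 0.402% and 0.0335% of cells, at 1.65 and 0.259 CPM, and Schwann cells in 0.130% and 0. Elsewhere fibroblasts had 2.37 and 0.433 CPM, keratinocytes 3.36 and 0.605 CPM, and mast cells 12.0 and 0 CPM with 8 of 9 UMIs in 1 cell. The mixed cells set aside had 46.7 and 5.07 CPM.

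Chil3 (chromosome 3, 106147554 to 106167564, minus strand), a secreted chitinase-like protein of macrophages and their monocyte precursors, was also lower. The macrophages and dendritic cells had 21.7 CPM (19.7 to 23.9; 435 UMIs, 129 cells) in WT_LW and 5.94 CPM (4.71 to 7.41; 79 UMIs, 36 cells) in TLR9agonist_LW, a log2 ratio of −1.87 (−2.23 to −1.52). Monocyte-like cells had the most cells with Chil3, 68 of 346 and 21 of 209, at 70.3 CPM and 29.9 CPM, a log2 ratio of −1.23 (−1.70 to −0.79). Mmp12 macrophage-like cells had 68.5 and 9.92 CPM, with 65 of the 160 WT_LW UMIs in 1 cell, a log2 ratio of −2.79 (−3.50 to −2.14), or −2.41 without the top cells.

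C1q macrophage-like cells held 37 Chil3 UMIs in 26 cells of WT_LW and 0 in TLR9agonist_LW, at least 8.01-fold lower. After thinning, Chil3 was found in 2.41% (1.76 to 3.21) and 0.736% (0.354 to 1.35) of macrophages and dendritic cells, against 0.130% and 0 of Schwann cells. Mixed cells held 169 Chil3 UMIs in WT_LW, 76 of them in 1 cell that also held 258 Mmp12 UMIs, and 16 in TLR9agonist_LW.

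Retnla (chromosome 16, 48842551 to 48844461, plus strand), a secreted protein of alternatively activated macrophages, rested on a handful of cells. Macrophages and dendritic cells held 346 UMIs in 19 cells of WT_LW (17.3 CPM) and 170 UMIs in 10 cells of TLR9agonist_LW (12.8 CPM), a log2 ratio of −0.43 (−0.71 to −0.16). One cell of WT_LW held 217 of the 346, and without the top cell of each library the ratio was 0.45 (0.08 to 0.82), so no direction was read. The subsets were as uneven: C1q macrophage-like cells had 15.7 CPM in WT_LW, with 76 UMIs in 1 cell, and 0 in TLR9agonist_LW, whereas Mmp12 macrophage-like cells had 0 in WT_LW and 35.2 CPM, 78 UMIs in 4 cells, in TLR9agonist_LW. After thinning, 7 of 1868 and 7 of 1358 cells held Retnla.

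Mrc1 (chromosome 2, 14229392 to 14332057, plus strand), the mannose receptor of tissue macrophages, was by contrast spread over many cells of both libraries. After thinning it was found in 668 of 1868 and 528 of 1358 macrophages and dendritic cells, and in most C1q macrophage-like cells. In the whole class it was at 429 CPM (420 to 438; 8594 UMIs) in WT_LW and 483 CPM (471 to 494; 6412 UMIs) in TLR9agonist_LW, a log2 ratio of 0.17 (0.12 to 0.22). Its subsets differed in opposite directions.

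C1q macrophage-like cells had 794 CPM (5159 UMIs, 594 of 705 cells) in WT_LW and 1187 CPM (5007 UMIs, 504 of 584 cells) in TLR9agonist_LW, a log2 ratio of 0.58 (0.52 to 0.64). Monocyte-like cells had 398 CPM (1189 UMIs) and 148 CPM (258 UMIs), a ratio of −1.42 (−1.62 to −1.23), and Cd209a dendritic-like cells 384 CPM and 173 CPM, a ratio of −1.15 (−1.36 to −0.94). Langerhans-like cells had a low level, 47.0 CPM (105 UMIs) in WT_LW and 131 UMIs in TLR9agonist_LW, with a ratio of 1.11 (0.73 to 1.49). Mmp12 macrophage-like cells had 201 and 213 CPM and a ratio of 0.09 (−0.10 to 0.27).

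Shares of cells followed the levels. After thinning, Mrc1 was found in 56.3% (52.4 to 60.1) and 72.0% (68.0 to 75.8) of C1q macrophage-like cells and in 33.4% (28.5 to 38.7) and 16.3% (11.6 to 22.1) of monocyte-like cells, against 1.69% and 0.862% of Schwann cells. Lymphatic endothelium, which also uses the mannose receptor, had 240 CPM (201 to 285) and 354 CPM (311 to 401), with 32 of its 247 TLR9agonist_LW UMIs in 1 cell. T cells had 10.8 and 6.88 CPM, fibroblasts 5.43 and 4.58 CPM and keratinocytes 3.96 and 3.56 CPM of Mrc1.

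**Figure D4:**
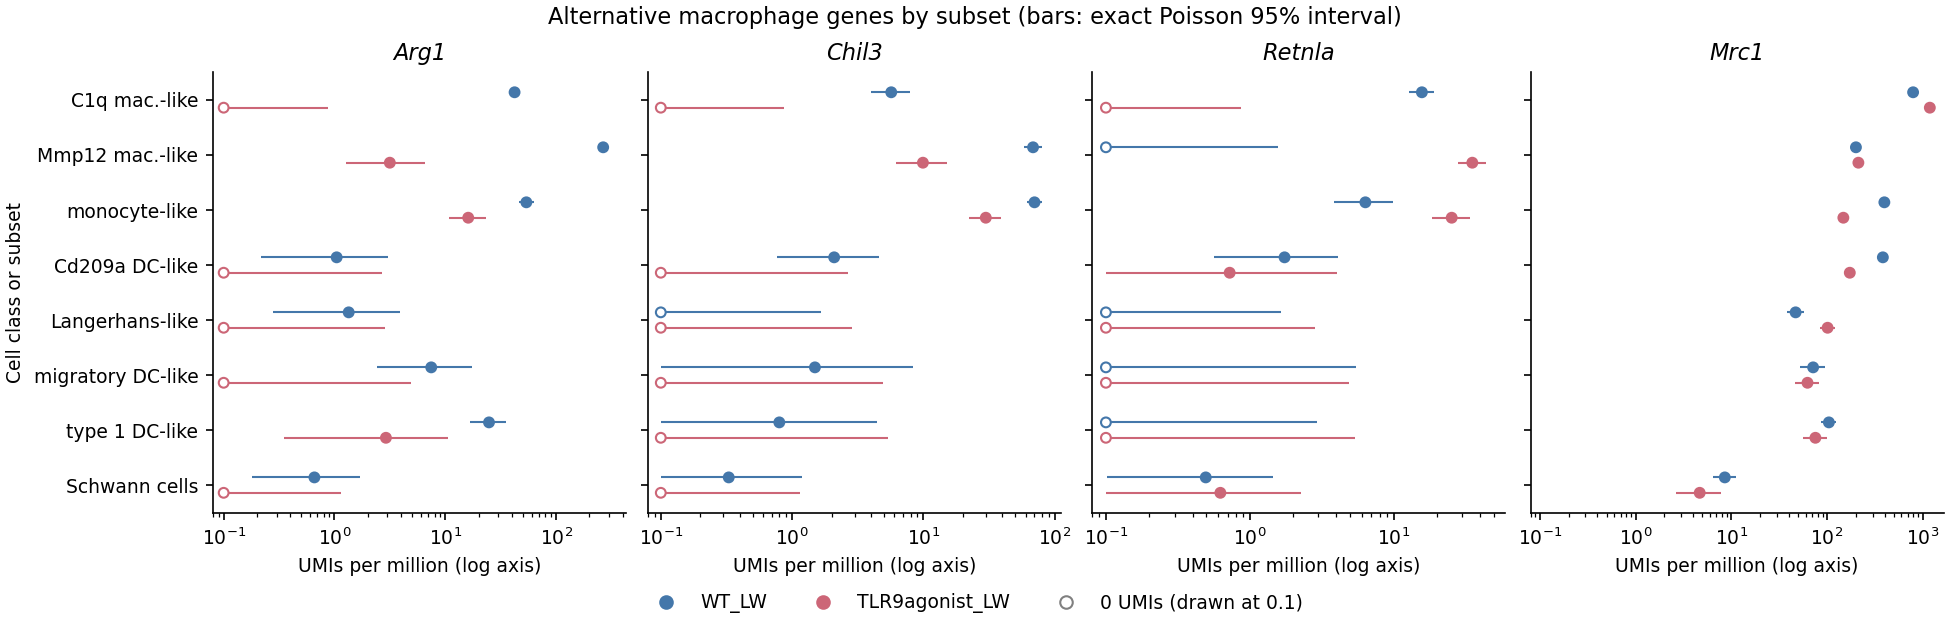
Level of Arg1, Chil3, Retnla and Mrc1 (horizontal log axis, CPM) in the macrophage and dendritic subsets and Schwann cells of WT_LW and TLR9agonist_LW, with exact Poisson 95% intervals as bars and open points, drawn at 0.1, for 0 UMIs. Arg1 is lower with the agonist in the Mmp12, C1q and monocyte-like subsets, and Mrc1 is higher in C1q macrophage-like cells and lower in monocyte-like cells.

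Whether the 4 macrophage genes were found in the same cells was read after thinning. In thinned macrophages and dendritic cells of WT_LW, 5 of 77 Arg1-positive cells held Chil3 (6.49%, 2.14 to 14.5), against 2.23% (1.60 to 3.03) of Arg1-negative cells. Mrc1 was found in 36.4% of Arg1-positive and 35.7% of Arg1-negative cells. No Retnla-positive cell held Arg1 or Chil3 in either library, but only 7 such cells were available in each.

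Of the members, 6 had at least 50 UMIs in macrophages and dendritic cells: Il4ra, Il13ra1, Arg1, Retnla, Chil3 and Mrc1. By the call of 2-fold relative to the median gene, 2 of the 6, Arg1 and Chil3, were lower and 0 were higher, where 2.22% of the 11353 genes tested in this class were called lower and 5.18% higher. The wider pathway was read from 8 gene lists of the same topics, in which 5 genes were called lower and 17 higher. Some genes stand on several lists, so no pooled share was read from these totals. The calls of each list are given below beside its measured genes. Those called higher include Il33, described below with its levels in other classes.

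Among 21 measured alternative macrophage genes, 5 were called lower: Arg1, Chil3, the ribonuclease Ear2 (22.2 and 6.70 CPM), the eosinophil chemoattractant Ccl24 (38.3 and 12.3 CPM) and the folate receptor Folr2 (17.5 and 7.22 CPM). Another 3 were called higher: the chemokine Ccl8 (403 and 1731 CPM), the ligand Pdcd1lg2 (26.7 and 47.9 CPM) and the oxysterol enzyme Ch25h (1.30 and 4.89 CPM). The median of the list was 0.04 relative to the median gene, which is the median of all genes tested.

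No receptor signalling gene was called by the same rule. Of 13 measured genes of IL-4, IL-13 and IL-5 receptor signalling, 0 were called in either direction and the median was −0.06; Stat6 itself had 49.4 and 38.0 CPM, and Irs2, an adaptor of the IL-4 receptor, 92.0 and 72.7 CPM. The IL-5 receptor chain Il5ra was listed with 0 and 1 UMI in macrophages and dendritic cells, while mast cells held 12 of its 12 UMIs in WT_LW and 17 of 20 in TLR9agonist_LW. Among transcription factors 2 of 8 were called higher, Maf (162 and 335 CPM) and Pparg (6.69 and 13.3 CPM).

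Of 9 genes of arginine metabolism 1, Arg1, was called lower and 2 higher, with a median of 0.48. Odc1, which turns ornithine into polyamines, had 421 and 1125 CPM, and Nos2, which competes with arginase for arginine, 1.60 and 13.3 CPM, with 76 of its 177 UMIs in TLR9agonist_LW in 1 cell. Of 11 classical macrophage genes 5 were called higher and 0 lower, with a median of 0.77: Il1b (1916 and 4232 CPM), Ptgs2 (336 and 1181 CPM), Il6 (6.04 and 30.2 CPM), Il1a and Nos2. Tnf was not among them, at 214 and 172 CPM.

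Of 7 measured alarmins and alarmin receptors 3 were called higher in macrophages and dendritic cells, Il33, Tslp and Il7r (237 and 432 CPM), with a median of 0.06. Il33 and Tslp are epithelial signals that act on type 2 cells, and keratinocytes held 55.7% and 71.2% of all Il33 UMIs and 67.1% and 55.2% of all Tslp UMIs. Keratinocytes had 92.1 CPM Il33 in WT_LW and 443 CPM in TLR9agonist_LW. The level in macrophages and dendritic cells, 1.70 and 23.9 CPM, was close to that in T cells, 2.22 and 35.5 CPM, and in Schwann cells, 2.31 and 25.9 CPM. Krt10, a keratinocyte gene, was found in 40.7% and 88.7% of macrophages and dendritic cells, and its part in these values was not tested. Keratinocyte Tslp had the other direction, with 960 UMIs among 591 cells of WT_LW and 1219 UMIs among 1525 cells of TLR9agonist_LW. Of the type 2 cytokines, Csf2 alone was measured in this class and called higher, as it was in T cells and mast cells. Of the eosinophil chemoattractants and tissue response genes, 1 of 4 (Ccl24) was called lower and 2, Areg and Ccl11, higher. Col1a1, a fibroblast gene, was at 346 and 623 CPM in macrophages and dendritic cells. The part of free RNA from other classes in the values of Csf2, Areg and Ccl11 was not tested.

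**Figure D5:**
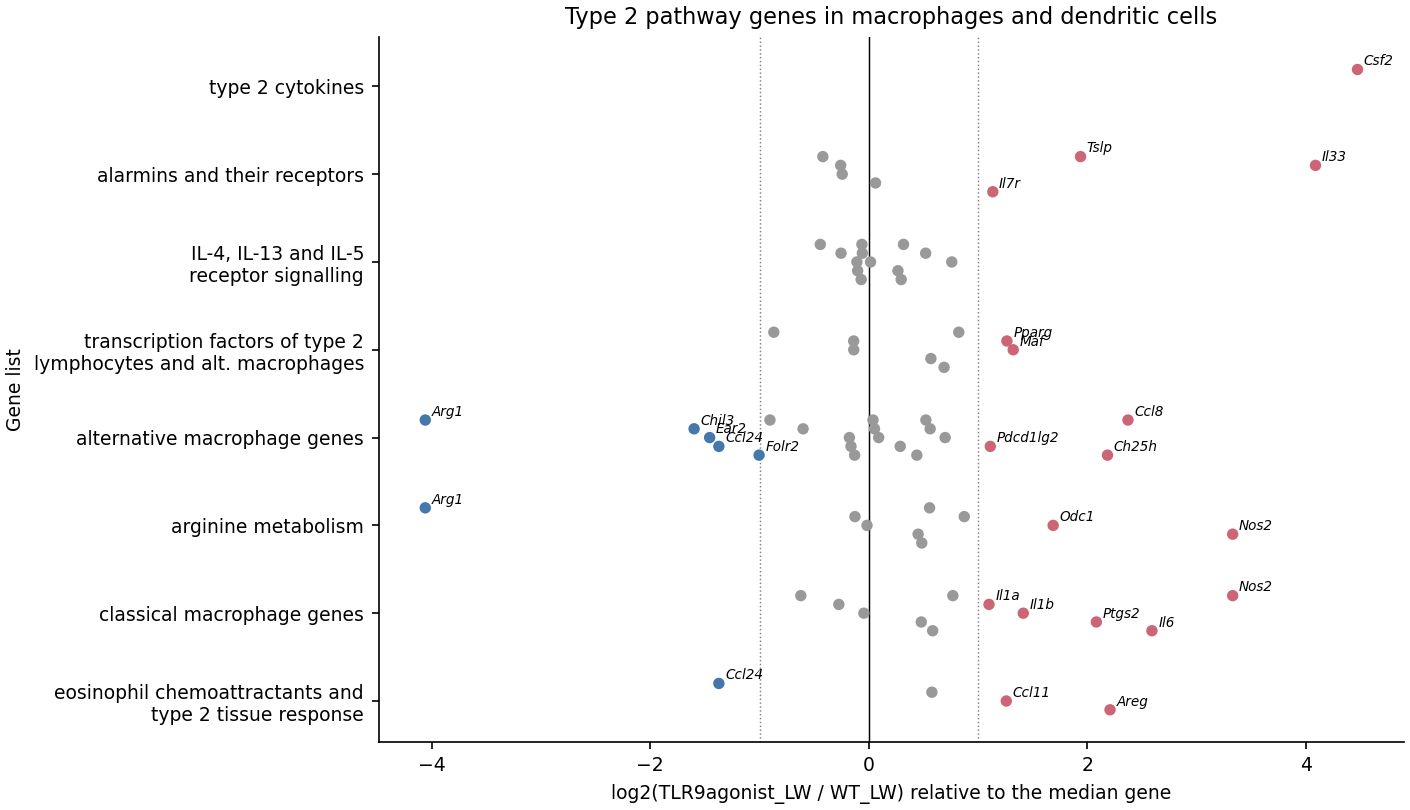
Log2 ratio of TLR9agonist_LW over WT_LW, relative to the median gene, of each measured gene of the 8 lists in macrophages and dendritic cells (points, coloured where past the dotted lines at 2-fold). Arg1 lies lowest at −4.06, and the genes of receptor signalling all lie between the lines.

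Over all genes measured, 6.44% were called higher and 4.27% lower in T cells, and 11.4% higher and 6.19% lower in mast cells. In T cells, 1 of 13 measured receptor signalling genes was called higher, Irs2 (93.2 and 199 CPM), and 3 of 7 transcription factors, Rora (833 and 1538 CPM), Irf4 (52.2 and 101 CPM) and Cebpb (206 and 435 CPM). Gata3, the master factor of type 2 lymphocytes, was not among them, at 102.0 and 80.8 CPM. The T cells included 388 γδT17-like cells in WT_LW and 937 in TLR9agonist_LW, and their part in these values was not tested. In mast cells 2 of 10 receptor signalling genes were called higher, Csf2rb, the chain common to the IL-3, IL-5 and GM-CSF receptors (433 and 1357 CPM), and Jak2 (85.3 and 340 CPM). With lists this short, 1 of 13 and 2 of 10 are near those shares of all genes. Other lists lay further from them. Of the classical macrophage genes, 3 of 7 were called higher in T cells and 4 of 6 in mast cells, with 0 lower. In mast cells 3 of 6 alternative macrophage genes were called higher and 2 lower. In T cells 2 of 3 eosinophil chemoattractant and tissue response genes were called higher. The part of free RNA in these counts was not tested. The alternative macrophage genes measured in T cells, 13 in number, had 5 called lower (Ccl17, Ccl22, Mgl2, Msr1 and Cd36) and 2 higher. Lyz2 was also found in fewer T cells of TLR9agonist_LW, and its part in this count was not tested.

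Each member was finally compared with 13489 genes by Pearson correlation of its level over 22 points, 11 classes in 2 libraries, which share library and depth, so the values are descriptions. Il4 was most like Cd200r3 (r = 0.99), Tpsg1 and Mrgprb2, Il13 most like 4932438H23Rik (r = 0.97), Cyp11a1 and Fcer1a, and Il5 most like Cd70 (r = 0.94). Il4ra was nearest to Hcls1 (r = 0.89) and Il13ra1 to Eif4ebp1 (r = 0.83). Arg1 was nearest to Ear2 (r = 0.83) and Gdf3, Retnla to Tlr8 (r = 0.93) and Msr1, and Mrc1 to Rtn1 (r = 0.89) and Ms4a7. The profiles of Il5 and Retnla rest on few cells. In macrophages and dendritic cells, 1 cell held all 36 Il5 UMIs of TLR9agonist_LW, and 1 cell held 217 of the 346 Retnla UMIs of WT_LW. Slamf8 (r = 0.91) and Adgre1 were among the 3 genes nearest to Chil3. Adgre1 is itself a marker of the gate for macrophages and dendritic cells, so its likeness is in part built in. Cd200r3, Cyp11a1 and Fcer1a are markers of the basophil gate, a class too small to enter these points.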

How the data were processed

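The deposited files hold raw UMI counts for each gene in each cell, which the authors obtained with Cell Ranger 4.0.0 (per the file headers). The submitters' processing notes also name fastp, Seurat and the build mm9. The depth was 99374045 UMIs in 12800 cells of WT_LW and 132339022 UMIs in 13751 cells of TLR9agonist_LW. Cells with under 500 UMIs, under 300 genes or over 15% mitochondrial UMIs were left out (1357 and 545 cells), then the cells with the highest Scrublet doublet scores in scanpy 1.11.5 (1048 and 1395). The rest were gated one by one, needing at least 2 markers of a class, and checked against 50 Leiden clusters. UMIs were summed per class and library. No test was run, since each group had 1 library. The scripts (Python 3.11.15, scipy 1.17.1) were tested on simulated data. Members, lists and gate thresholds were chosen with earlier results of these data known. Named genes are the members, the genes of the 8 lists and the 3 genes most like each member. Alternatives were stricter cell and gate filters, doublets or mixed cells kept, cluster classes, equal weight per cell, median-centred scaling, a lower UMI minimum for listed genes and thinning to 3000 UMIs.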

Additional observations from a re-analysis of the deposited data

Results flagged for a closer look

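By a strict rule, the ratios of 2 members went opposite ways in different cells. Counting intervals had to stay on the same side of 0 as reported, relative to the median gene and without the top cells. Equal weight per cell had to give the same sign, and classes with few cells or UMIs of the gene were left out. Il13 and Il4ra also had ratios of both signs, described above, but did not pass this rule. Il13ra1 had a log2 ratio of TLR9agonist_LW over WT_LW of 0.35 in blood endothelial cells and −0.52 in macrophages and dendritic cells. Mrc1 had a log2 ratio of 0.58 in C1q macrophage-like cells and −1.42 in monocyte-like cells. With 1 library per group, neither difference was tested.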

How the results depend on the processing

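No paired analysis was possible because each group is 1 library and no test was run. With median-centred scaling the log2 ratio over all cells was 0.81 for Il4 (0.42 as reported) and −0.077 for Il13 (−0.47), and in macrophages and dendritic cells it was 0.016 for Il4ra (−0.25), −0.25 for Il13ra1 (−0.52), −0.16 for Retnla (−0.43) and 0.44 for Mrc1 (0.17). With equal weight per cell it was 1.01 for Il4 and 0.53 for Il13 over all cells, −0.32 for Il13ra1, −1.27 for Retnla and 0.34 for Mrc1 in macrophages and dendritic cells, and 0.14 for Il13 in T cells (−1.01). For Retnla it was −0.078 with the stricter cell filter and 0.45 without the cell with the most UMIs in each library, an alternative added after seeing the data. Sign changes of these ratios were those of Il13 over all cells and in T cells, Il4ra and Retnla. Thinned to 3000 in place of 1500 UMIs, the log2 ratio of the shares of cells turned from above 0 to −0.27 for Il5 in T cells and from 0.12 to −0.042 for Mrc1 in macrophages and dendritic cells, all with intervals that include 0. Apart from the weighting and the left-out cell, whose construction is their own, the cause was not tested. The level ratios of Arg1, Chil3 and Il5 kept their direction in every alternative run on them. No alternative left out more than the top cell of each library, whereas 5 cells held 80.5% of the Il5 UMIs of TLR9agonist_LW. The count of pathway genes in macrophages and dendritic cells was 4 to 7 lower and 12 to 19 higher over the alternatives. Few cells held the cytokines: Il5 was found in 20 and 32 cells, and there were 6 and 8 ILC2-like cells and 11 and 4 basophils.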

Other observations

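Il9, another type 2 cytokine, was singled out after its values were seen. WT_LW held 148 Il9 UMIs in 6 cells and TLR9agonist_LW held 0. A cell without a class held 127 of them among 11254 UMIs, together with 5 Gata3, 9 Il13 and 2 Cd3d UMIs, and a CD4 helper-like T cell held 17.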
